A study of Mus musculus with 12 samples.

Results

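The comparison set every blood stem cell library that carried 1 NrasG12D allele against every library that did not, whatever its Tet2 genotype. All 12 libraries of the series entered it. The 6 carriers were 3 NrasG12D/+ single mutants and 3 NrasG12D/+;Tet2+/- double mutants, called compound mutants here. The 6 non-carriers were 3 wild type libraries and 3 Tet2+/- single mutants. All mice were C57BL/6 and 10 to 12 weeks old, and the cells were sorted from bone marrow as SLAM hematopoietic stem cells (CD150+ CD48- Lin- Sca1+ cKit+). This gate enriches for cells that can rebuild the whole blood system. Total RNA was sequenced after ribosomal and mitochondrial RNA had been depleted. How the alleles were made or switched on, and whether each library came from a mouse of its own, is not given in the sources used here, so p-values measure the spread between these libraries.

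NRAS is a small GTPase that relays signals from growth factor and cytokine receptors. It is active while bound to GTP, and the G12D substitution slows GTP hydrolysis, so that the protein stays active for longer. Active Ras recruits RAF kinases, which switch on MEK and then ERK, and it also binds PI3K. ERK raises D cyclins and its own inhibitors, the DUSP phosphatases and the Sprouty and SPRED proteins. D cyclins with CDK4 and CDK6 release E2F factors, which drive the genes of DNA replication, and the genes of mitosis follow later in the cycle. Most hematopoietic stem cells are at rest, and NRAS mutations occur in myeloid leukemias, among them chronic myelomonocytic leukemia, where TET2 is often mutated too.

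Genes of cell division were higher in the carriers in both Tet2 genotypes. Of 15478 genes tested, 5 rose and 3 fell (limma with Benjamini-Hochberg adjustment at 0.05), which is 0.0323% and 0.0194% of the genes. Those that rose were Gem, Slc22a3, Top2a, Mki67 and Robo3, and those that fell were Gda, Fut8 and Plxdc2. The topoisomerase Top2a and the proliferation antigen Mki67 were joined, below the threshold, by most other genes of mitosis. Of the 48 mitosis genes, 47 had a higher mean in carriers. The median difference of the 48 was 0.65 on the log2 scale, where the median over all tested genes was -0.01. When 1 library was left out, 1 to 7 genes rose and 0 to 3 fell. Gem kept its call without any 1 of the 12 libraries, Slc22a3 without 8 of them, Top2a without 7, Gda without 5, Mki67 and Robo3 without 3 each, Fut8 without 1 and Plxdc2 without none. All 8 genes kept their direction in each of these fits. Wild type replicate 1 and NrasG12D/+ replicate 2 had more genes at 0 reads than any other library; without them, 2 genes rose and 1 fell.

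Between 19205045 and 36890942 reads fell in genes per library, and 1000 to 3824 genes had no read. The labels give no sex; from Xist and Y-linked reads, 2 carriers and 3 non-carriers were male. Transcripts of the gate fitted the sort: Kit had 66.3 to 86.0 RPKM (reads scaled to gene length and sequencing depth) in carriers and 64.7 to 76.9 in non-carriers, Slamf1, which encodes CD150, had 3.17 to 7.56 and 5.26 to 11.3, and Cd48 had no read in 9 of 12 libraries. Ly6a, which encodes Sca1, had 4.37, 6.35 and 8.32 RPKM in carriers and 2.21, 3.98 and 4.96 in non-carriers, a log2 difference of 0.73 ± 0.24 that did not pass (limma adjusted p = 0.457). Summed RPKM of marker lists for other cells overlapped between carriers and non-carriers for granulocytes (6.91 to 18.3 against 8.15 to 23.1), monocytes (82.3 to 118 against 95.3 to 118), erythroid cells (149 to 198 against 145 to 194), the B lineage (4.84 to 21.6 against 3.07 to 7.39), the T and NK lineage (14.7 to 42.8 against 26.0 to 40.0) and endothelium (27.8 to 38.3 against 31.4 to 39.8). In mast cell, basophil and eosinophil markers the sums were 1.29 to 60.4 and 1.77 to 6.00, the top value being compound replicate 3, where the eosinophil gene Prg2 had 1381 reads; Prg2 had 28 to 95 reads in 3 other carriers and 0 in every other library. Compound replicate 3 also had 1245 reads of Dntt, a gene of lymphoid precursors. Dntt had 293 reads in NrasG12D/+ replicate 3, 74 in compound replicate 1 and 0 in every other library. In bulk RNA, a change in the share of cells of a type cannot be told apart from a change in RNA per cell.

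No difference in total transcript between carriers and non-carriers was detected for Nras or Tet2. Both groups hold as many Tet2+/- as Tet2 wild type libraries, so the Tet2 values here do not compare Tet2+/- with wild type. Nras (chromosome 3, 103058285 to 103067914 in mm10) had a lowest, median and highest value of 4.76, 6.23 and 6.83 RPKM in carriers and of 4.95, 5.90 and 6.70 in non-carriers. The groups overlapped, with a log2 difference of 0.03 (95% interval -0.26 to 0.33) and a two-sided exact permutation p of 0.72 over the 400 arrangements within Tet2 genotype, where the smallest p possible is 0.005. Tet2 (chromosome 3, 133463679 to 133545139), the dioxygenase that oxidizes 5-methylcytosine, had 4.50, 5.05 and 7.03 RPKM in carriers and 4.09, 4.93 and 5.23 in non-carriers, a log2 difference of 0.13 (95% interval -0.16 to 0.43, exact permutation p = 0.27). Values per gene do not separate the mutant from the wild type allele, so they are no check of the genotype.

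Gem had the smallest p of all genes tested. It encodes a small GTPase of the RGK family, which inhibits voltage-gated calcium channels, and lies on chromosome 4 at 11704457 to 11714752. Carriers had 27.2, 34.5 and 55.1 RPKM (lowest, median and highest), against 3.23, 5.29 and 7.05 in non-carriers. The lowest carrier was thus well above the highest non-carrier. In the 4 genotypes the mean was 5.88 ± 1.12 in wild type, 4.19 ± 1.53 in Tet2+/-, 37.7 ± 15.2 in NrasG12D/+ and 37.6 ± 9.26 in compound mutants (SD, n = 3 each). The log2 difference was 2.91 ± 0.23 (SE), a fold of 7.51, with a limma adjusted p of 0.00112, and the reads behind it numbered 3258 to 6454 in carriers and 351 to 703 in non-carriers.

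Slc22a3 (chromosome 17, 12418960 to 12507704) encodes the organic cation transporter OCT3. Its carriers had 31.3, 39.6 and 46.4 RPKM and its non-carriers 17.1, 20.001 and 23.3. It rose 1.95-fold, a log2 difference of 0.96 ± 0.11 (limma adjusted p = 0.0137), and the genotype means were 19.0 ± 1.67 in wild type, 20.9 ± 2.63 in Tet2+/-, 38.2 ± 2.72 in NrasG12D/+ and 39.9 ± 7.79 in compound mutants. Robo3 (chromosome 9, 37415669 to 37433246) is an axon guidance receptor of the Roundabout family. It had 1.42, 2.86 and 3.50 RPKM in carriers against 0.0737, 0.187 and 0.638 in non-carriers. It rose 11.4-fold, by 3.52 ± 0.47 on the log2 scale (limma adjusted p = 0.0301), from 52 to 445 reads to 856 to 2258 reads. The gene length behind its RPKM is longer than its spliced mRNA, so the RPKM is low for that number of reads. For both genes every carrier was above every non-carrier.

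The 3 genes that fell were also separated by library. Gda (chromosome 19, 21391307 to 21473445), guanine deaminase of purine breakdown, had 1.89, 2.37 and 4.07 RPKM in carriers and 7.38, 10.9 and 13.4 in non-carriers. It was 4.02-fold lower, a log2 difference of -2.01 ± 0.25 (limma adjusted p = 0.0198). Fut8 (chromosome 12, 77238125 to 77476338), which adds core fucose to N-glycans, had 15.7, 18.8 and 22.8 RPKM against 29.8, 35.5 and 47.7, a log2 difference of -0.96 ± 0.13 (limma adjusted p = 0.0301). Plxdc2 (chromosome 2, 16356304 to 16755839), a transmembrane protein with a plexin domain, had 6.92, 7.85 and 9.41 RPKM against 12.2, 13.5 and 16.4, a log2 difference of -0.80 ± 0.11 (limma adjusted p = 0.0301). The plot of these 8 genes by library shows the gap between carriers and non-carriers in each.

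**Figure D1:**
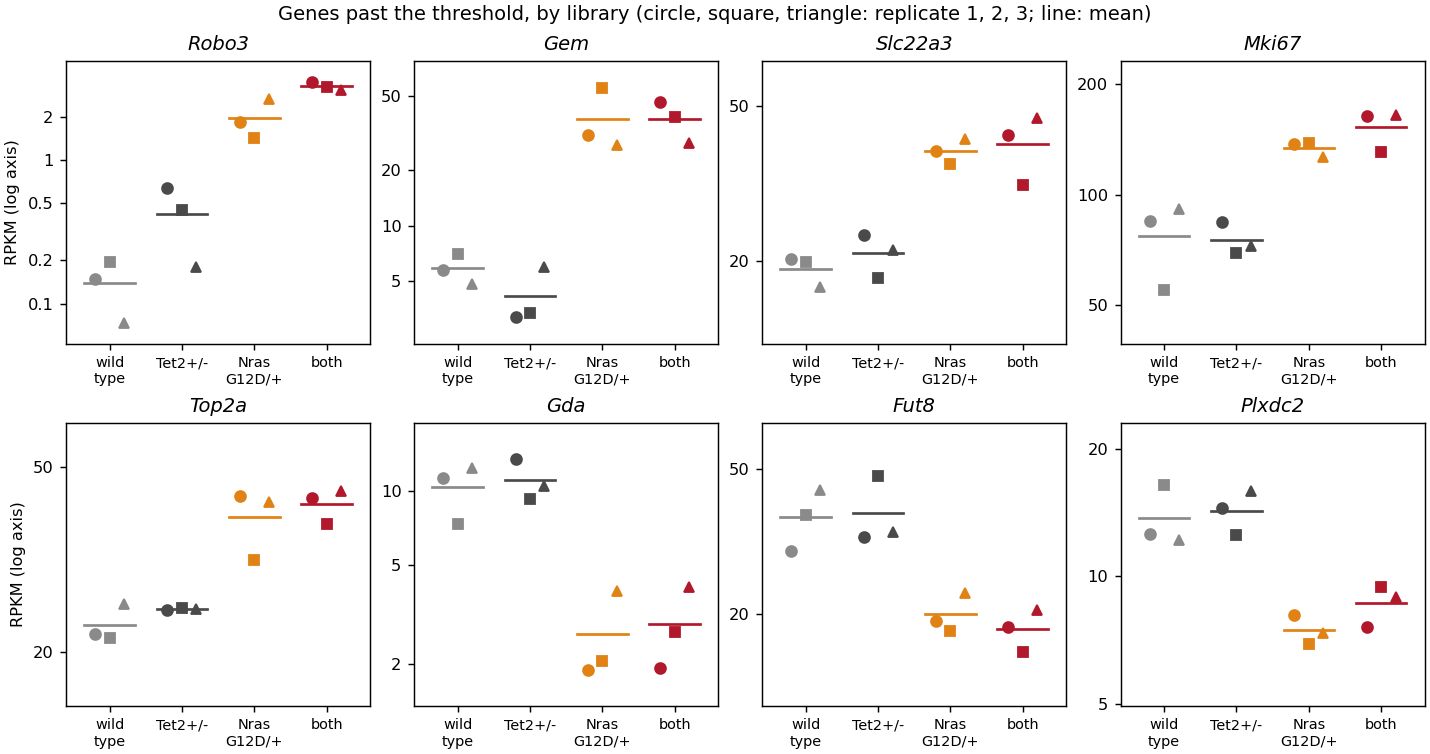
RPKM (log axis) of the 8 genes past the threshold in each library, by genotype; symbols mark the replicate number and the line the mean of 3 libraries. Carriers and non-carriers do not overlap in any of the 8 genes; Gem runs from 27.2 to 55.1 in carriers and from 3.23 to 7.05 in non-carriers.

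The genes next in rank did not pass, although their libraries did not overlap either. Above the non-carriers were Casc5, the kinetochore scaffold KNL1, at 6.10, 6.73 and 7.82 RPKM against 2.56, 3.29 and 4.37 (log2 difference 1.03 ± 0.16, limma adjusted p = 0.0718), and Kif11, the kinesin that separates spindle poles, at 27.3, 31.6 and 42.7 against 14.6, 18.9 and 22.4 (0.85 ± 0.13, adjusted p = 0.0718). Foxm1, a transcription factor of mitotic genes, had 5.11, 5.5 and 7.94 against 2.37, 3.02 and 3.54 RPKM (0.95 ± 0.16). The other two in that direction were the linker histone H1f0 at 55.5 to 80.2 against 27.5 to 49.8 RPKM, and the thrombin receptor F2r at 36.6 to 46.8 against 17.9 to 30.4. Adjusted p was 0.106, 0.119 and 0.128 for Foxm1, H1f0 and F2r with limma. Top2a, Mki67, Kif11 and Foxm1 are on the list of mitosis genes, which thus holds 4 of these 10 higher genes.

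Below the non-carriers were several genes of the cell surface. Csf2rb, the common signalling chain of the GM-CSF, IL-3 and IL-5 receptors, had 5.64, 6.62 and 9.77 RPKM in carriers and 11.3, 12.7 and 15.9 in non-carriers (log2 difference -0.90 ± 0.15, limma adjusted p = 0.0839). Ifitm1, an interferon-induced membrane protein, had 9.12, 15.2 and 23.2 against 29.5, 33.9 and 38.1 (-1.11 ± 0.21, adjusted p = 0.179). Plxnb2, a semaphorin receptor, and Sema7a, a membrane-anchored semaphorin, had log2 differences of -0.79 ± 0.15 and -1.54 ± 0.32. The potassium channel gene Kcnk5 had 7.05, 13 and 21.1 RPKM against 24.9, 28.3 and 34.6, and Fgd5, a Cdc42 exchange factor used to mark hematopoietic stem cells, had 5.52, 7.56 and 9.92 against 11.2, 12.7 and 15.2. Epb4.1l4b, a protein of the membrane skeleton, had 4.25, 5.46 and 8.78 against 9.16, 10.9 and 11.6. For these last 5 genes the limma adjusted p lay between 0.179 and 0.216. Over all tested genes, 71 (0.459%) lay with every carrier above every non-carrier and 60 (0.388%) with every carrier below; of the genes on the cell cycle and histone lists, 180 were tested, and 20 of them are among the 71 and 0 among the 60.

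The 2 Tet2 genotypes give 2 estimates of the carrier difference that share no library. In NrasG12D/+ minus wild type and in compound minus Tet2+/-, the log2 differences were 2.63 and 3.19 for Gem, 3.90 and 3.13 for Robo3, 1.01 and 0.92 for Slc22a3, 0.83 and 1.02 for Mki67 and 0.76 and 0.75 for Top2a. They were -2.03 and -1.99 for Gda, -0.88 and -1.05 for Fut8 and -0.87 and -0.72 for Plxdc2. These genes passed a test that averages both backgrounds, which favours genes with like differences in each, so the likeness is a description. In the fit of all 12 libraries with 1 mean per genotype, NrasG12D/+ minus wild type called 1 gene that rose (0.00646% of the tested genes), 1600002K03Rik, which has no gene name yet, and compound minus Tet2+/- called 1, Gem (0.00646%). With only the 6 libraries of a background in the fit, Gem passed in neither.

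**Figure D2:**
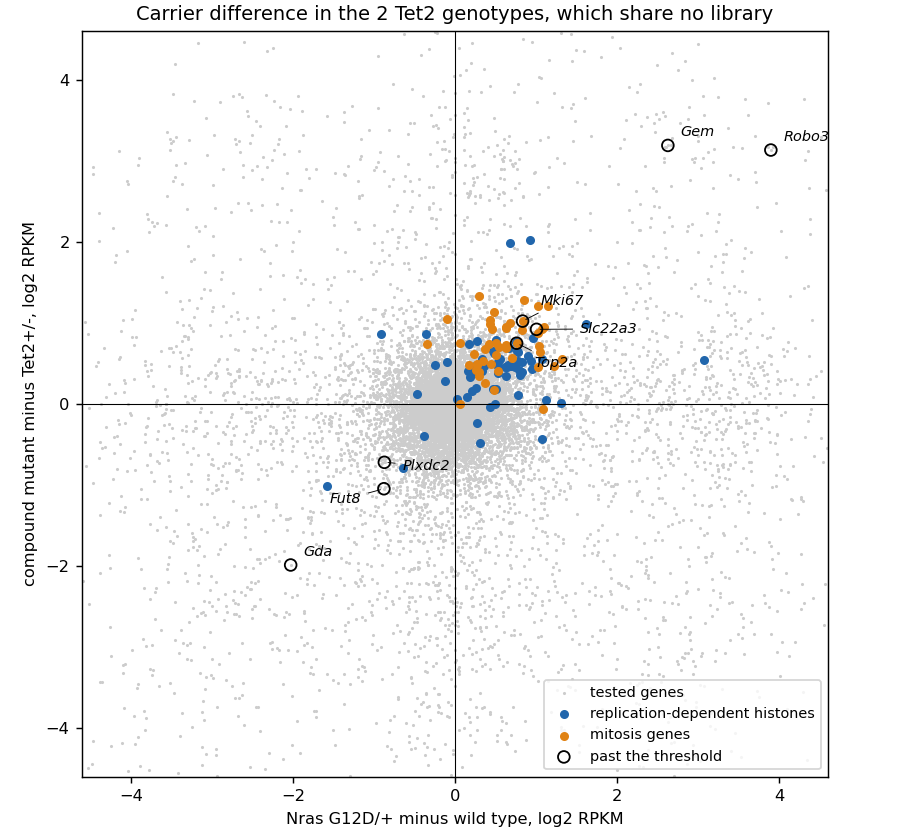
Log2 RPKM difference of each gene between carriers and non-carriers in the Tet2 wild type background (x axis) and in the Tet2+/- background (y axis); 14884 of the tested genes are inside the axes and 594 outside. Rings mark the 8 genes past the threshold, which lie near the diagonal, and most orange points (mitosis) and blue points (replication-dependent histones) lie above and right of 0.

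Across all genes the 2 differences were almost unrelated (Pearson correlation 0.05 and Spearman correlation 0.10 over 15478 genes, which are not independent replicates). Each background was then fitted alone. NrasG12D/+ was higher than wild type at an unadjusted p under 0.05 for 334 genes (2.16%), and 219 of them (65.6%) were also higher in compound than in Tet2+/-, where 47.1% of all genes were. It was lower for 258 (1.67%), and 171 of them (66.3%) were also lower in compound than in Tet2+/-, where 52.9% of all genes were. Compound was higher than Tet2+/- at that p for 492 genes (3.18%), and 356 (72.4%) were also higher in NrasG12D/+ than in wild type, where 51.4% of all were. It was lower for 469 (3.03%), and 280 (59.7%) were also lower in NrasG12D/+, where 48.6% of all were. Of genes that were higher at that p, 63 were shared by the 2 backgrounds, and of lower ones 27.

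The test of the difference between the 2 backgrounds called 2 transcripts (0.0129%), both lower, and 0 higher. An unadjusted p under 0.05 was found for 221 higher (1.43%) and 302 lower (1.95%) with limma, and voom called 0. Both are low transcripts with libraries at 0. 1600002K03Rik had 0 reads in all 3 wild type libraries, 21 to 125 in Tet2+/-, 107 to 149 in NrasG12D/+ and 49 to 79 in compound libraries. Gm15371 had 0 reads in all wild type and all compound libraries, 27 to 120 in Tet2+/- and 42 to 163 in NrasG12D/+. Among genes with a name of their own, the smallest p belonged to Rwdd2b, with an interaction of -1.70 (95% interval -2.45 to -0.94, limma adjusted p = 0.90).

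Mitosis genes gave the most even pattern of all lists. The list holds 48 genes of the spindle, kinetochore, condensin and mitotic kinases, and all 48 were tested. Of these, 47 had a higher mean in carriers, where 48.9% of all tested genes did, and 43 were higher in both Tet2 backgrounds, where 26.6% of all genes were. An unadjusted p under 0.05 with a higher level was found for 32 of 48, where 3.97% of all genes reached it, and with a lower level for 0. Past the adjusted threshold were 2, where 0.0323% of all genes rose. In 10 every carrier was above every non-carrier, as in 0.459% of all genes. The median difference was 0.52 in NrasG12D/+ minus wild type and 0.71 in compound minus Tet2+/-, and it stayed between 0.60 and 0.70 when any 1 library was left out. It was 0.74 among males, 0.59 among females, and 0.66, 0.57 and 0.64 within replicate numbers 1, 2 and 3.

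Top2a (chromosome 11, 98992943 to 99024189), the topoisomerase that untangles sister chromatids, had 31.6, 42.5 and 44.4 RPKM in carriers against 21.4, 24.7 and 25.3 in non-carriers. It rose 1.69-fold, a log2 difference of 0.76 ± 0.09 (limma adjusted p = 0.0171). Its genotype means were 22.8 ± 2.17, 24.7 ± 0.158, 39.0 ± 6.44 and 41.7 ± 3.48 in wild type, Tet2+/-, NrasG12D/+ and compound libraries. Mki67 (chromosome 7, 135689784 to 135716361), which coats mitotic chromosomes and is the standard antigen of cycling cells, had 127, 138 and 165 RPKM against 54.9, 78.4 and 91.6. It rose 1.90-fold, by 0.93 ± 0.13 (limma adjusted p = 0.0301). Ncaph, a condensin subunit, had 4.63, 5.44 and 7.54 RPKM against 1.68, 2.73 and 3.79, without overlap and with a log2 difference of 1.11 ± 0.22 (adjusted p = 0.188). The 1 member with a lower mean was Ube2c, an E2 enzyme of the anaphase-promoting complex, whose median was nevertheless 1.26 RPKM in carriers and 0.448 in non-carriers; it had 0 reads in compound replicates 1 and 2, which enter its mean log2 value.

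Over the list as a whole, the level of a library was taken as the median over members of log2 RPKM relative to each gene's mean. It ran from -0.55 to -0.15 in the 6 non-carriers and from 0.11 to 0.48 in the 6 carriers. The lowest carrier was NrasG12D/+ replicate 2 and the lowest non-carrier wild type replicate 2.

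**Figure D3:**
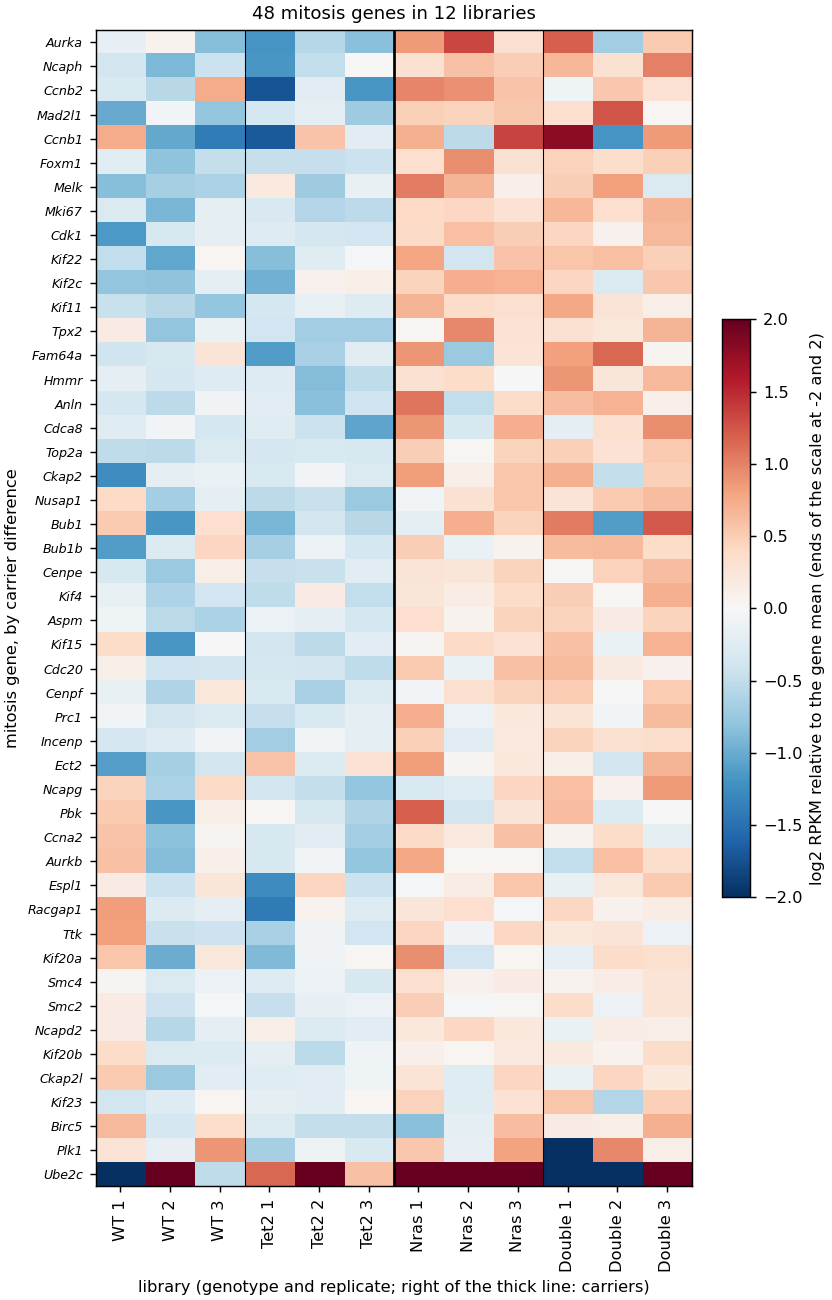
Log2 RPKM of 48 mitosis genes (rows, ordered by the carrier difference) relative to each gene's mean in the 12 libraries (columns); red is above and blue below the mean, and the scale ends at -2 and 2. The columns right of the thick line are the 6 carriers, and 47 of the 48 rows have a higher mean there; the last row, Ube2c, has 0 reads in compound replicates 1 and 2.

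The promoters of these genes are printed because mitosis and replication genes are read by different factors. As background, mitotic genes carry a CHR element that DREAM and MYB-MuvB-FOXM1 complexes bind and CCAAT boxes that NF-Y binds, while replication genes carry E2F sites. Each sequence is the 250 bases before the transcription start, 5′ to 3′ on the gene's strand, from RefSeq on GRCm38.p6, and capitals mark matches on either strand. Top2a is at chr11:99024190-99024439 (minus strand), Mki67 at chr7:135716380-135716629 (minus strand) and Kif11 at chr19:37376132-37376381 (plus strand). Pola1, the catalytic subunit of DNA polymerase alpha, is at chrX:93632156-93632405 (minus strand).
Top2a: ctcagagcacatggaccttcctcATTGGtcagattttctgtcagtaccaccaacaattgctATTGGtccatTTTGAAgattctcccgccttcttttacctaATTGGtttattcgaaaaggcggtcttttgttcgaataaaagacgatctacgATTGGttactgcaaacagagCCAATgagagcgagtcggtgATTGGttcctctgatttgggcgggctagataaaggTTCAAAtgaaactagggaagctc
Mki67: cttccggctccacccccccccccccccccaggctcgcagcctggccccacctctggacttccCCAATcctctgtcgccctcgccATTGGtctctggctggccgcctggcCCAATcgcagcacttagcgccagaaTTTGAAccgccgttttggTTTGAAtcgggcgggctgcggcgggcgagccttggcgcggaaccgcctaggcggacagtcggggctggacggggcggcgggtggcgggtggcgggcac
Kif11: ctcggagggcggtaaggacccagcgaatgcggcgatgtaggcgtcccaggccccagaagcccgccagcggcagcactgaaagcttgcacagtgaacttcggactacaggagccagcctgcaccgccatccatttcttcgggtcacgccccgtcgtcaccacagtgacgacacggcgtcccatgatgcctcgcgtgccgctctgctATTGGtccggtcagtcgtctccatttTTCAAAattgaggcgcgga
Pola1: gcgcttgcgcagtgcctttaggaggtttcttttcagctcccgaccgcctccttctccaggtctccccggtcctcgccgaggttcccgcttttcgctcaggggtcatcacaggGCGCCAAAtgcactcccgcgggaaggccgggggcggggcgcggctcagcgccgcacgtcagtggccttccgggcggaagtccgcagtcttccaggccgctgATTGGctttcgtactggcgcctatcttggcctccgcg
The motifs were CHR (TTTGAA), the CCAAT box (CCAAT) and E2F (TTTGGCGC, TTTCCCGC or TTTCGCGC); CRE (TGACGTCA) and ETS (CCGGAAGT) were also searched and are in none of the 4. No match overlaps another. Counted to the motif's first base from the start site, Top2a has CHR at -179 and -23, and Mki67 at -116 and -98. Kif11 has CHR at -19 with a CCAAT box at -45. Pola1 has no CHR in this window, an E2F match at -138 and a CCAAT box at -37. Other named genes lack these matches. The mitosis gene Ncaph has neither CHR nor CCAAT, and the replication genes Prim1 and Brca1 have no E2F match. Pold1 has an E2F match only past the start, at 39.

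The motifs were then counted over both lists. In windows of 300 bases that reach 50 bases past the start, CHR was found in 33 of 41 windows of mitosis genes (80.5%), in 5 of 40 of replication genes (12.5%) and in 17.9% of all 32851 windows. CCAAT was found in 32 (78.0%) of the mitosis windows, 22 (55.0%) of the replication windows and 37.4% of all. E2F was found in 4 (9.76%), 16 (40.0%) and 1.84%, most replication windows thus holding no E2F match. CRE was found in 2 (4.88%), 2 (5%) and 1.79%, and ETS in 4 (9.76%), 5 (12.5%) and 3.89%. The windows cover 39 of the 48 mitosis genes and 35 of the 42 replication genes that the table holds. A match of letters is a description and not a binding site.

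DNA replication genes were higher by a smaller amount. Of 42 tested, 40 had a higher mean in carriers (48.9% of all genes), 34 in both Tet2 backgrounds (26.6% of all genes), and the median difference was 0.33, between 0.26 and 0.35 without any 1 library. An unadjusted p under 0.05 was found for 14, all higher (3.97% of all genes), and 0 passed the adjusted threshold. Prim1, the primase subunit that starts each new strand, was the 1 member without overlap, where 0.459% of all genes were higher without overlap. It had 6.51, 7.55 and 8.5 RPKM in carriers against 2.36, 4.76 and 6.46 in non-carriers (0.76 ± 0.23, limma adjusted p = 0.432). Pola1 had 12.9, 15.6 and 20.1 against 10.4, 12.0 and 13 (0.40 ± 0.11). Brca1, which acts in fork repair, and Pold1, a subunit of the replicative DNA polymerase delta, had log2 differences of 0.68 ± 0.18 and 0.52 ± 0.15 (limma adjusted p = 0.346 and 0.377).

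Replication-dependent histone genes, whose mRNA is made in S phase and carries no poly(A) tail, were measured because total RNA was sequenced. Of 66 listed, 63 were tested, 57 had a higher mean in carriers (48.9% of all genes) and 50 were higher in both backgrounds (26.6% of all genes). The median difference was 0.50, and 25 had an unadjusted p under 0.05 with a higher level (3.97% of all genes) and 0 with a lower one (3.46%); 0 passed after adjustment. Hist1h1b, a linker histone, had 50.2, 63.8 and 103 RPKM in carriers and 31.6, 41.1 and 44.2 in non-carriers (0.76 ± 0.15, limma adjusted p = 0.179). Hist1h1c had 137, 172 and 244 against 112, 121 and 135 (0.55 ± 0.13), and neither gene overlapped between the groups. The core histones Hist1h2bn, Hist1h2bf and Hist1h2ab had differences of 0.89 ± 0.21, 0.73 ± 0.19 and 0.71 ± 0.16. Many core histone genes are near-identical copies, so reads could be split among them and single values are uncertain. The list's difference was 0.20 among males and 0.62 among females. Among 11 replacement histones, which are made outside S phase, 9 had a higher mean, with a median of 0.23 that was 0.13 without compound replicate 3, 0.04 among males and -0.10 within replicate number 1; the variant H2afz had 5.89 to 9.27 RPKM against 3.72 to 5.37 without overlap.

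The entry into the cycle was described by 2 further lists. Of 16 D cyclins and G1 kinases with their E2F partners, 11 had a higher mean (48.9% of all genes). An unadjusted p under 0.05 was found for 4 with a higher level (3.97% of all genes) and 1 with a lower one (3.46%). The list's median was 0.28. It was 0.18 without NrasG12D/+ replicate 3, 0.19 without compound replicate 1 and -0.02 within replicate number 2. Cdk6, the main D cyclin kinase of blood stem cells, had 27.8, 39.0 and 43.3 RPKM in carriers against 20.7, 25.7 and 26.9 in non-carriers, without overlap (0.56 ± 0.12, limma adjusted p = 0.216). Ccnd1, cyclin D1, had 17.4, 20.1 and 28.1 against 7.44, 12.0 and 19.1 (0.82 ± 0.21, adjusted p = 0.344), and Ccne2, cyclin E2, had 1.76, 2.61 and 3.57 against 0.681, 1.09 and 2.05 (1.16 ± 0.31, adjusted p = 0.348). Cyclin D2 went the other way, at -0.24 ± 0.11. Of 16 tested CDK inhibitors and quiescence genes 8 were higher, with a median of -0.09. Cdkn1c, the p57 inhibitor tied to stem cell rest, had a difference of -0.80 ± 0.36 and Cdkn2d, the p19 inhibitor, one of 0.56 ± 0.19, and neither passed.

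Along the Ras pathway itself, the transcripts of the signalling proteins had list medians near that of all genes. Of 10 Ras family genes 5 had a higher mean, the differences ran from -0.53 to 0.37 and 0 had an unadjusted p under 0.05. The 18 exchange factors, GTPase activators and adaptors had a median of 0.08 and the 15 kinases and scaffolds of the RAF, MEK and ERK chain one of 0.06. Genes that ERK induces were more spread. Of 21 listed, 15 were tested and 9 had a higher mean, 5 had an unadjusted p under 0.05 with a higher level (3.97% of all genes) and 1 with a lower one (3.46%). The median was 0.25 and lay between 0.06 and 0.26 without any 1 library, lowest without wild type replicate 1, at 0.03 without wild type replicate 1 and NrasG12D/+ replicate 2, and at 0.47 among males and -0.06 among females.

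Dusp6, the phosphatase that switches off ERK, had 23.6, 28.6 and 38.2 RPKM in carriers against 13.8, 15.9 and 21.9 in non-carriers. Its groups did not overlap, and its difference was 0.82 in the Tet2 wild type and 0.90 in the Tet2+/- background (0.86 ± 0.15 in all, limma adjusted p = 0.128). Etv5, an ETS factor induced by ERK, had 6.39, 7.74 and 9.56 against 1.48, 4.36 and 5.17, also without overlap (1.16 ± 0.30, adjusted p = 0.348). Dusp4, a nuclear ERK phosphatase, had 11.4, 13.8 and 16.4 against 1.24, 8.11 and 12.6. Its difference was 2.09 in the Tet2 wild type and 0.34 in the Tet2+/- background, and the difference between these was -1.75 (95% interval -3.33 to -0.17, limma adjusted p = 0.996). The other feedback genes were not of 1 direction: Spred1 was at 0.25 ± 0.07, while Spry1 and Spry2, the Sprouty inhibitors, were at -0.32 ± 0.27 and -0.52 ± 0.42.

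Immediate early genes, which growth signals induce within minutes, differed mainly by the replicate number of the labels. Their level was 1.11 to 1.65 in the 4 libraries numbered 2, -0.44 to 0.31 in the 4 numbered 3 and -1.60 to -0.32 in the 4 numbered 1. Sex, read from Xist and Y-linked reads, was male for each library with number 1 and female for each with number 2, so number and sex cannot be told apart between these. Of 21 tested, 19 had a lower mean in carriers, where 51.1% of all genes did, and in both backgrounds 15 were lower, where 28.1% of all genes were. The median was -0.54, and it ran from -0.82 to -0.11 as single libraries were left out, at -0.82 without Tet2+/- replicate 1, -0.11 without NrasG12D/+ replicate 1, -0.15 without Tet2+/- replicate 2, -0.20 without wild type replicate 2 and -0.25 without compound replicate 1. An unadjusted p under 0.05 was found for 0 of the 21 in the main test. It was found for 7 with the replicate number in the fit and for 4 with sex in the fit, all lower. Of all 15478 tested genes, 1151, 1269 and 1137 reached that p in these fits, in either direction. In the main fit 536 of the 1151 were lower, which is 3.46% of all genes. For the other fits the split by direction is not given here. Within numbers 1, 2 and 3 the median difference was -0.73, -0.35 and -0.34.

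Single members differed in how they separated within a number. Fos had 5.66, 36.8 and 170 RPKM in carriers against 6.62, 54.1 and 174 in non-carriers, and overlapped within numbers 1 and 2 too. Egr1, a zinc finger factor downstream of ERK, had 0.824 to 1.57 RPKM in carriers against 4.47 to 12.9 for number 1, 35.5 to 38.1 against 46.8 to 50.8 for number 2, and 2.91 to 5.90 against 11.5 to 14.0 for number 3. Its overall difference was -1.59 ± 1.03 (limma adjusted p = 0.796). Jun, the partner of Fos, had 27.6 to 42.8 against 26.7 to 34.2 for number 1, 151 to 174 against 154 to 159 for number 2 and 60.3 to 82.2 against 86.6 to 96.1 for number 3, so that it overlapped in numbers 1 and 2. Klf2 overlapped in number 2, at 16.3 to 19.6 against 12.3 to 18.9. What the replicate numbers stand for is not given in the sources used here.

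**Figure D4:**
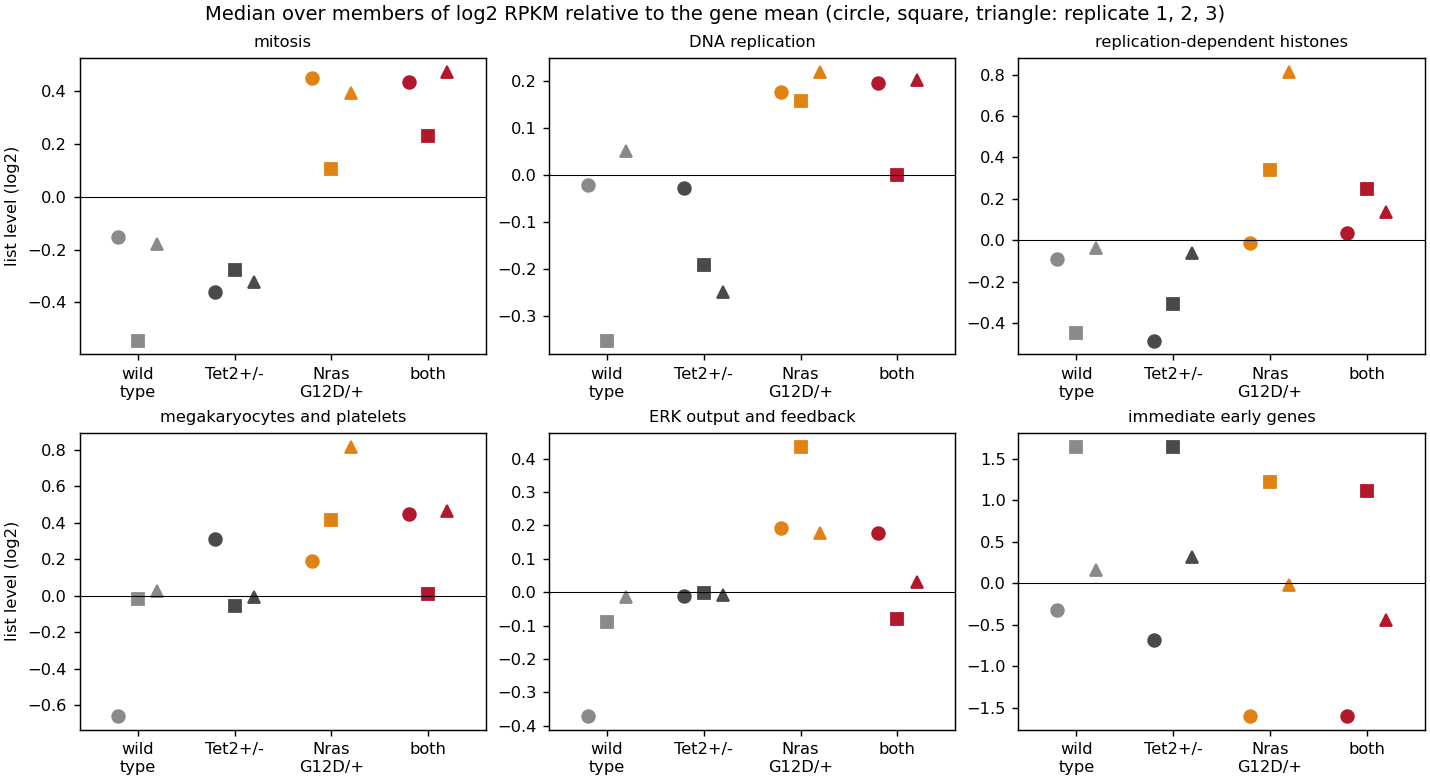
Median over the tested members of 6 lists of log2 RPKM relative to the gene mean, per library (y axis, log2), by genotype; circle, square and triangle mark replicate 1, 2 and 3. Mitosis separates carriers (0.11 to 0.48) from non-carriers (-0.55 to -0.15), while the immediate early level follows the replicate number.

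In the PI3K branch, the members with small p were lower in carriers. Of 25 tested genes of PI3K, AKT and FOXO, 4 had an unadjusted p under 0.05, all with a lower level, where 3.46% of all genes reached it. The list's median was -0.03. It was 0.01 among males, -0.11 among females, and 0.05, -0.10 and -0.06 within replicate numbers 1, 2 and 3. Pik3cd, the PI3K catalytic subunit of blood cells, had 3.93, 4.79 and 6.41 RPKM in carriers against 6.91, 8.12 and 12.4 in non-carriers (-0.87 ± 0.19, limma adjusted p = 0.223). Pik3r1, the regulatory subunit p85, had 29.1, 30.5 and 34.9 against 35.3, 36.1 and 47.1 (-0.31 ± 0.09, adjusted p = 0.383). In both genes every carrier was below every non-carrier, as in 0.388% of all genes. Pik3cb and Rheb were at -0.99 ± 0.44 and -0.34 ± 0.14.

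Of 28 cytokine receptor genes 14 had a higher mean (48.9% of all genes), and the median was 0.00. An unadjusted p under 0.05 was found for 2 higher (3.97% of all genes) and 2 lower members (3.46%). Csf2rb, given above, was the 1 member without overlap, where 0.388% of all genes were lower without overlap. Tgfbr3 and Tek, the angiopoietin receptor, were at 0.56 ± 0.19 and 0.43 ± 0.17. Of 18 tested targets of STAT5 and SOCS genes 7 were higher, with a median of -0.04, and an unadjusted p under 0.05 was found for 4 lower members (3.46% of all genes) and 1 higher one (3.97%). Socs2, a cytokine signalling inhibitor that STAT5 induces, had 0.0678, 0.382 and 0.588 RPKM in carriers and 0.785, 1.49 and 1.82 in non-carriers, from 40 to 298 and 530 to 1136 reads. It did not overlap and had a difference of -2.19 ± 0.58 (limma adjusted p = 0.348). The gene length behind the RPKM of Socs2 is also longer than its spliced mRNA. Pim2, Pim1 and Cish, further targets of STAT5, were at -0.87 ± 0.27, -0.70 ± 0.28 and -0.67 ± 0.22.

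Genes of stem cell identity were more often lower than higher in mean. Of 39 tested, 14 had a higher mean (48.9% of all genes) and 25 a lower one (51.1%). The median was -0.12 (-0.07 without NrasG12D/+ replicate 3). In both backgrounds 20 were lower (28.1% of all genes) and 8 higher (26.6%). An unadjusted p under 0.05 was found for 5 higher (3.97% of all genes) and 5 lower members (3.46%). Gata2, a transcription factor that stem cells need, had 52.5, 61.7 and 76.4 RPKM in carriers against 43.4, 47.5 and 54.4 (0.38 ± 0.10, limma adjusted p = 0.348), and Angpt1, a ligand of Tek, had 276, 299 and 325 against 205, 235 and 289 (0.29 ± 0.09). Hlf, a factor that marks long-term stem cells, had 38.6, 46.8 and 53 against 47.1, 64.7 and 68.1 (-0.37 ± 0.10, adjusted p = 0.369). All 3 overlapped between carriers and non-carriers. Fgd5 and Ifitm1, also on this list, were the 2 members without overlap, both lower, where 0.388% of all genes were lower without overlap.

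Megakaryocyte and platelet markers had the largest list median, 0.74, of those with 10 or more tested members. Of 17 tested, 14 had a higher mean (48.9% of all genes) and 10 were higher in both Tet2 backgrounds (26.6% of all genes). An unadjusted p under 0.05 was found for 5 higher (3.97% of all genes) and 1 lower member (3.46%). The summed RPKM of the markers was 152 to 212 in carriers and 133 to 154 in non-carriers. Selp, the granule adhesion receptor P-selectin, had 7.18, 13.3 and 16.2 RPKM against 2.11, 5.96 and 12.3 (1.18 ± 0.37, limma adjusted p = 0.434), and Itga2b, the integrin CD41, had 9.32, 15.4 and 21.1 against 9.47, 10.3 and 13 (0.54 ± 0.18). Pf4, platelet factor 4, had 214 to 862 reads in carriers and 0 to 127 in non-carriers, without overlap. Vwf, which also marks stem cells, had a lower mean, at -0.45 ± 0.24. The list's median was 0.48 without wild type replicate 1, 0.43 without wild type replicate 1 and NrasG12D/+ replicate 2, 1.08 among males and 0.43 among females. The part of other cells in these values was not tested.

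**Figure D5:**
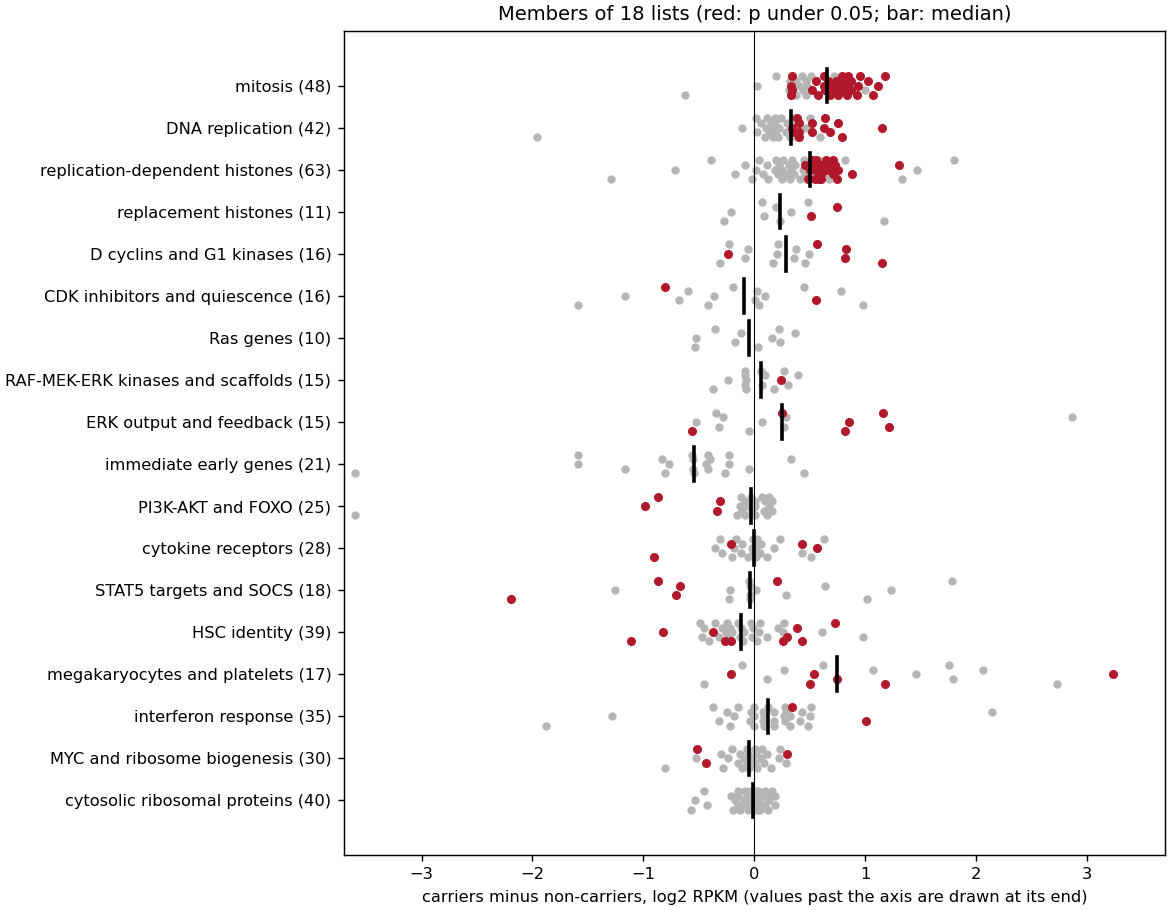
Log2 RPKM difference between carriers and non-carriers of every tested member of 18 lists (in brackets, the number tested); red points have an unadjusted p under 0.05, bars are medians, and values past the axis are drawn at its end. Mitosis (median 0.65), replication-dependent histones (0.50) and DNA replication (0.33) lie right of 0 as groups. Ribosomal proteins (-0.01) and the list of MYC and ribosome biogenesis genes (-0.05) are centred near 0.

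Several other programs had list medians between -0.11 and 0.13. The median was -0.05 for 30 genes of MYC and ribosome biogenesis, -0.01 for 40 ribosomal proteins, 0.04 for 38 nuclear genes of oxidative phosphorylation, -0.08 for 21 of glycolysis, -0.09 for 20 of cholesterol synthesis and -0.11 for 24 of the unfolded protein and stress response. It was -0.11 for 15 genes of NF-kB and inflammation. For 35 interferon response genes it was 0.13, and 24 had a higher mean (48.9% of all genes). For 16 genes of antigen presentation it was 0.09, and 14 had a higher mean. In each of the interferon and antigen lists, 2 members were higher at an unadjusted p under 0.05 (3.97% of all genes) and 0 lower (3.46%). p53 targets (18 genes) were at 0.01, Hox genes and partners (17) at 0.01, Polycomb and Asxl genes (26) at -0.03 and the enzymes of DNA methylation and its removal (14) at 0.12. In the BCL2 family (10 tested, median -0.03) Bcl2 itself, the survival factor, had 13.9, 19.4 and 21.1 RPKM in carriers against 11, 12.2 and 13.7, without overlap (0.55 ± 0.12, limma adjusted p = 0.227). Around Slc22a3, 7 of 11 tested membrane transporters had a higher mean, with Abcb1b at 0.59 ± 0.20 and Abcg2, the efflux pump of the stem cell side population, at -0.49 ± 0.17. Around Robo3, 4 of 12 tested axon guidance genes had a higher mean, with a median of -0.25.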

How the data were processed

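RNA-seq of 12 libraries, 3 per genotype, was used. The authors deposited 1 table of log2 RPKM for 18546 genes; per the submitters' processing notes, CASAVA 1.8.2, TopHat2, edgeR and the mm10 build were used, and the counter and annotation are not given in the sources used here. Low values of the deposited table show that a small prior, averaging 0.25 reads, was added before the log; the columns are numbered, so their unit is recorded as other. Whole reads were recovered for 100% of values (tolerance 0.001 reads), which gave depths and the voom alternative.

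Genes with log2 RPKM of 0 or more in at least 3 libraries were kept (15478; 3068 were left out). The test was limma 3.58.1 in R 4.3.3 on the log2 values with 1 Nras and 1 Tet2 coefficient, a variance trend, two-sided, Benjamini-Hochberg adjusted over all tested genes at 0.05, with 9 residual degrees of freedom; the interaction and the 2 backgrounds came from a fit with 1 mean per genotype (8). The script was tested on simulated data. Fold changes include the authors' prior and so understate changes of low genes. Coordinates are mm10. Named genes were Nras, Tet2, genes past the threshold, those next in p up to 10 per direction, up to 5 members per list, and interaction genes by p. Unnamed transcripts were left out, other than the 2 called ones. Ube2c, Fos, Egr1, Jun, Klf2, Spry1, Spry2, Vwf, Prg2, Dntt, Kit, Slamf1 and Cd48 are given by role or were chosen after their values were seen. The members and gene lists were chosen with earlier results of these data known. Alternatives covered the minimum, pseudocount, scaling, model, sex, replicate number, weights, reads and left-out libraries.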

Additional observations from a re-analysis of the deposited data

Results flagged for a closer look

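In 44 groups of 6 libraries, 1 value stood apart by Dixon's criterion in 3, where chance gives about 1 in 20. Foxm1 was 7.94 RPKM in NrasG12D/+ replicate 2, and 5.11 to 5.78 in the other carriers. F2r was 17.9 RPKM in wild type replicate 3, and 25.7 to 30.4 in the other non-carriers. Tet2 was 4.09 RPKM in Tet2+/- replicate 2, and 4.82 to 5.23 in the other non-carriers.

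The carrier difference was unequal in the 2 Tet2 backgrounds by the interaction test for 1600002K03Rik, at -8.47 on the log2 scale, and for Gm15371, at -16.2 (limma, Benjamini-Hochberg adjusted p = 0.0144 for both). Genotypes at 0 reads enter both values, so that their size depends on the authors' prior and is no bound on a fold.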

How the results depend on the processing

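All 8 genes past the threshold kept their direction under each alternative run, and voom called all 8 among 24. The number that rose (5) was 1 with replicate block and sex, 21 with library weights, 2 with no variance trend, 15 with voom, 2 without wild type replicate 1 and NrasG12D/+ replicate 2, 0 for NrasG12D/+ against wild type alone, 1 for compound against Tet2+/- alone, and 1 to 7 without single libraries. It was 1 without compound replicate 1, NrasG12D/+ replicate 1 or Tet2+/- replicates 2 or 3, 2 without NrasG12D/+ replicate 3, 3 without NrasG12D/+ replicate 2 or compound replicate 2, and 7 without wild type replicate 3. The number that fell (3) was 1 with 1 mean per genotype, 1 with the replicate block, 1 with the block and sex, 7 with weights, 0 with no trend, 9 with voom, 1 without the 2 libraries, 0 for NrasG12D/+ against wild type alone, and 0 to 3 without single libraries: 0 without replicate 1 or 2 of compound or NrasG12D/+ or replicate 2 or 3 of Tet2+/-, and 1 without NrasG12D/+ replicate 3, Tet2+/- replicate 1 or wild type replicates 2 or 3. The cause was not tested; fits with fewer libraries have fewer residual degrees of freedom.

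Interaction calls (2) were 0 with log2(RPKM + 0.5), quantile scaling, the replicate block or voom, and 0 to 6 without single libraries. NrasG12D/+ against wild type (1) gave 3 with log2(RPKM + 0.5), 0 with quantile scaling, 0 with voom, and 1 to 18 without single libraries, 18 without wild type replicate 2 or NrasG12D/+ replicate 3. Compound against Tet2+/- (1) gave 0 with the replicate block, 0 with voom, and 0 to 6 without single libraries. Only 2 of 18 same-numbered pairs correlated above 0.1 (-0.13 to 0.14), short of the level taken here for paired libraries, although 8 of 12 correlated best with their own number and immediate early genes followed it; with the replicate block 4 genes rose. The Nras difference ran from -0.015 to 0.094 without single libraries and was below 0 without Tet2+/- replicate 1, NrasG12D/+ replicate 3 or wild type replicate 3; that of Fos ran from -1.14 to 0.056, above 0 without NrasG12D/+ replicate 1. The planned edgeR test on recovered reads was not run.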
